A study of Homo sapiens with 4 samples.

Results

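Glutathione and NRF2 core genes were followed in H226 cells, a long-established human line of lung squamous cell carcinoma, after knockdown of the transcription factor p63. The genes were chosen by symbol as known members of the pathway, with earlier results of these data in view, and all 10 of them (NFE2L2, KEAP1, SLC7A11, GCLC, GCLM, GSR, GPX2, TXNRD1, NQO1 and HMOX1) were found among the 25369 genes of the deposited count table. Polyadenylated RNA was sequenced from 2 cultures carrying a doxycycline-inducible hairpin against p63 (shp63) and from 2 cultures carrying an inducible non-targeting hairpin (shControl). All 4 cultures, controls included, received doxycycline at 1 µg/mL for 6 days, and the submitters describe the 2 cultures of each group as biologically independent. One construct is named per group, so an effect of the hairpin and an effect of its target cannot be told apart, and these results come from a single line.

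NRF2, the product of NFE2L2, is a transcription factor that is held at a low level by KEAP1, an adaptor that presents it for ubiquitination and degradation. When oxidants or electrophiles modify KEAP1, NRF2 accumulates, pairs with a small MAF protein and binds antioxidant response elements near genes of detoxification and of glutathione and thioredoxin metabolism. Glutathione is a tripeptide made from glutamate, cysteine and glycine. SLC7A11 imports cystine for it, the GCLC and GCLM subunits carry out the rate-limiting ligation, GPX2 consumes it to reduce peroxides, and GSR returns its oxidised form to the reduced one with NADPH. Mutations of NFE2L2 and KEAP1 that release NRF2 are known in squamous lung cancer. The mutation state of these cells was not analysed here, and NRF2 is controlled mostly at the protein level, which mRNA counts do not show.

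The libraries summed to 51926832 to 53924761 reads. TP63, the targeted gene, had 1596 and 1530 reads in the shp63 libraries, against 7533 and 7364 reads in the shControl libraries, and was 4.46-fold lower in shp63. Of 8 squamous and basal epithelial markers, with the targeted TP63 itself among them, 7 were lower and 1 higher in shp63. Of all tested genes 37.1% were lower and 36.9% higher (adjusted p under 0.05, edgeR). SOX2 had no more than 14 reads in a library. Leukocyte markers summed to 81.6 to 85.3 CPM (read counts scaled to library size with TMM factors) in shp63 and to 14.8 to 16.3 CPM in shControl, with 4 of 5 tested markers higher (CD14, CD68, CSF1R and LYZ) and ITGAM 2.53-fold lower, while the pan-leukocyte marker PTPRC had 4 to 8 reads in a library and MS4A1 and CD163 had none. Endothelial markers summed to 190 to 191 CPM in shp63 and to 59.9 to 65.0 CPM in shControl, nearly all of it CDH5 (3.31-fold higher). PECAM1 was 1.81-fold higher at 49 to 107 reads in a library. VWF was 3.57-fold lower, and KDR, TEK and ERG stayed at 6 reads or fewer. Mesothelial markers summed to 630 to 636 CPM in shp63 and to 334 to 361 CPM in shControl, through MSLN (2.51-fold higher) and UPK3B (1.40-fold higher), while CALB2 and WT1 had 8 reads or fewer and PDPN had none. Fibroblast markers summed to 67.1 to 75.3 CPM in shp63 and to 97.3 to 102 CPM in shControl, mostly COL1A1, with DCN at 0, and glandular lung markers summed to 3.23 to 3.36 CPM in shp63 and to 3.97 to 4.39 CPM in shControl. The part of these markers in the results below was not tested. In bulk RNA of this kind, fewer cells of a type and less RNA per cell cannot be told apart.

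Core antioxidant response element motifs were looked up in the 1000 bases before the start of each gene's MANE Select transcript, because NRF2 binding to such elements is the known link among these genes. The letters TGACNNNGC, searched on both strands of GRCh37, were found before 6 of the 10 genes, against 32.6% of 18920 protein-coding genes. The longer form TGACNNNGCA was found before 5 of the 10, against 9.28% of the same 18920 genes. The 10 genes were chosen as known pathway members, so these shares describe that choice and not the effect of the knockdown. Each of the 6 genes held 1 match. The sequences of 5 of them are given 5′ to 3′ on the gene's own strand with the 9 letters of the match in capitals, read as the reverse complement (GCNNNGTCA) where the motif lies on the opposite strand.
GCLC: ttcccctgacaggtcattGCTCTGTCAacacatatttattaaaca
GCLM: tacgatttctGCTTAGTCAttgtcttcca
GPX2: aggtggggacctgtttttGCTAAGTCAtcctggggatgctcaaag
NQO1: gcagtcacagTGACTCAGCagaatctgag
TXNRD1: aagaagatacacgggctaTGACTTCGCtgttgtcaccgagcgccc
These stretches lie at chr6:53410743-53410787 (GCLC), chr1:94375002-94375030 (GCLM), chr14:65409559-65409603 (GPX2), chr16:69760900-69760928 (NQO1) and chr12:104609440-104609484 (TXNRD1). All but TXNRD1 lie on the minus strand. The match began 870 bases upstream of the start in GCLC, 34 in GCLM, 122 in GPX2, 455 in NQO1 and 99 in TXNRD1; the sixth match lay 91 bases upstream of GSR. The match in NQO1 contains TGACTCA, the letters of an AP-1 site, so the motifs overlap there. TXNRD1 had the short form without the final A, and the other 5 genes had the long form. No match lay in the window of NFE2L2, KEAP1, SLC7A11 or HMOX1, which says only that these letters are not in that window. Genes with a match moved in both directions, with GCLC, GCLM, GPX2 and NQO1 lower and GSR and TXNRD1 higher in shp63. So did those without a match, with NFE2L2, KEAP1 and SLC7A11 lower and HMOX1 higher.

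The knockdown cultures had less mRNA for cystine import, for both glutathione ligase subunits, for GPX2 and for NQO1, and more mRNA for the reductases GSR and TXNRD1 and for HMOX1. All 10 genes passed the test between groups, 3 higher and 7 lower in shp63 (edgeR quasi-likelihood test, adjusted p under 0.05 over 14901 tested genes). Replicates were so close that 74.0% of all tested genes passed, 36.9% higher and 37.1% lower. The shp63 and shControl libraries did not overlap for any of the 10, which was true of 86.4% of tested genes. In a test against a change beyond 1.5-fold 2 genes passed, SLC7A11 and GPX2, both lower, where 22.7% of all tested genes passed. The median log2 fold change was -0.34 over the 10 genes and -0.01 over all tested genes. Together the 10 genes took 0.117% and 0.120% of the reads in the shp63 libraries, against 0.152% and 0.153% in the shControl libraries.

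**Figure D1:**
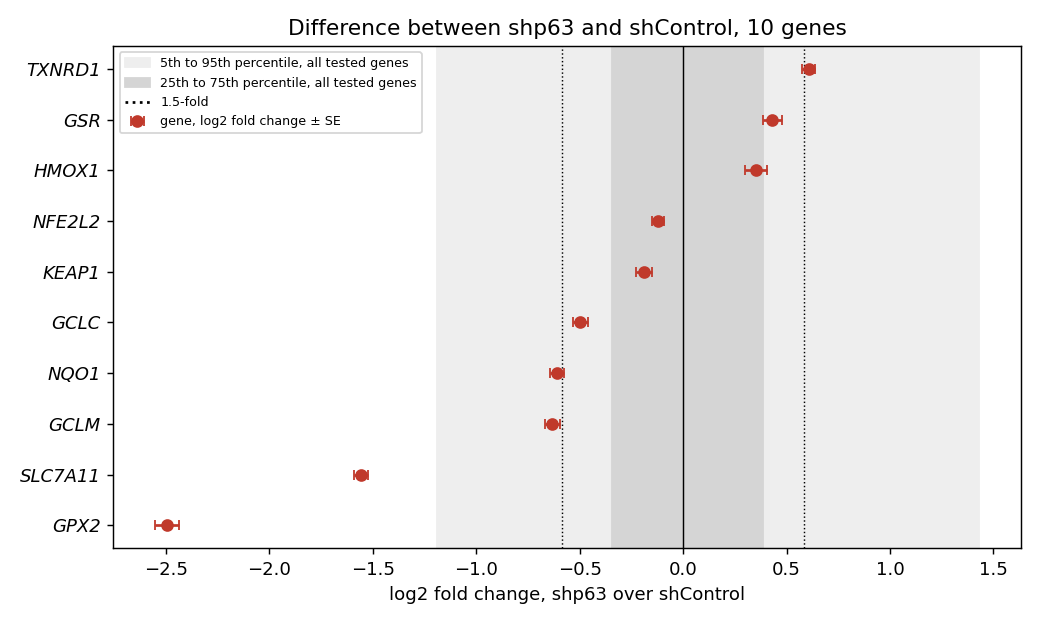
Log2 fold change of shp63 over shControl for each of the 10 genes (points, bars show the SE of the edgeR fit), over the 5th to 95th and 25th to 75th percentiles of all 14901 tested genes (shading). GPX2 at -2.50 and SLC7A11 at -1.56 lie below the 5th percentile of -1.19, and no gene of the 10 reaches the 95th percentile of 1.43.

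NFE2L2 and KEAP1, the regulator and its adaptor, were both slightly lower in the knockdown cultures. NFE2L2 (ENSG00000116044, chr2:178095036-178129455, minus strand, GRCh37) had 174 and 181 CPM in the shp63 libraries, against 193 and 193 CPM in the shControl libraries. It was 1.09-fold lower in shp63 (log2 fold change -0.12, SE 0.030, adjusted p = 0.000871, edgeR with Benjamini-Hochberg adjustment). The shp63 values lay further apart than the shControl values, and both lay below them. Exons of AGPS and HNRNPA3 overlap those of NFE2L2 on the opposite strand. The libraries were stranded, but whether reads were counted by strand is not given in the sources used here. Whether the overlap added to the NFE2L2 count, took from it or left it unchanged cannot be told. KEAP1 (ENSG00000079999, chr19:10596801-10614032, minus strand) had 70.1 and 69.7 CPM in the shp63 libraries, against 80.0 and 79.3 CPM in the shControl libraries, 1.14-fold lower (log2 fold change -0.19, SE 0.039, adjusted p = 0.00019, edgeR). Both changes lie within the middle 50% of all tested genes, which spans log2 fold changes from -0.35 to 0.38.

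The ratio of NFE2L2 to KEAP1 reads, which does not depend on scaling between libraries, was 2.48 and 2.59 in shp63, against 2.41 and 2.43 in shControl. The groups did not overlap, and the shp63 ratio was 1.05-fold higher on average, a difference of 0.07 on the log2 scale beside an SD of 0.045 within shp63. With 2 libraries against 2, the exact two-sided permutation test cannot give a p under 0.333, and it gave 0.333 for this ratio as for each of the other 5 ratios described here.

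Among the 10 genes, the cystine importer fell more than either ligase subunit. SLC7A11 (ENSG00000151012, chr4:139085251-139163503, minus strand), the light chain of the cystine and glutamate exchanger, had 63.1 and 66.3 CPM in the shp63 libraries, against 188 and 193 CPM in the shControl libraries. It was 2.94-fold lower (log2 fold change -1.56, SE 0.035, adjusted p = 3.95e-20, edgeR), a value below those of all but 2.93% of tested genes. The antisense gene SLC7A11-AS1, which overlaps its exons, had 4 reads or fewer in a library. SLC3A2, the heavy chain that carries SLC7A11 and other amino acid transporters to the membrane, differed little between the groups. It had 2920 and 2890 CPM in the shp63 libraries, against 3088 and 3101 CPM in the shControl libraries, 1.07-fold lower (adjusted p = 0.0398, edgeR). Its call did not hold with the replicate number as a block (adjusted p = 0.158) or with RLE size factors (adjusted p = 0.0549). SLC7A11 reads per SLC3A2 read numbered 0.0216 and 0.0229 in shp63, against 0.0609 and 0.0622 in shControl, a 2.76-fold lower ratio.

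Both subunits of glutamate-cysteine ligase fell, and by similar amounts. GCLC (ENSG00000001084, chr6:53362139-53409899, minus strand), the catalytic subunit, had 81.0 and 83.4 CPM in the shp63 libraries, against 114 and 118 CPM in the shControl libraries. It was 1.41-fold lower (log2 fold change -0.50, SE 0.037, adjusted p = 6.17e-11, edgeR). GCLM (ENSG00000023909, chr1:94350755-94374986, minus strand), the modifier subunit that raises the enzyme's efficiency, had 82.9 and 86.0 CPM in the shp63 libraries, against 132 and 130 CPM in the shControl libraries. It was 1.55-fold lower (log2 fold change -0.63, SE 0.036, adjusted p = 4.33e-13, edgeR), and its adjusted p for a change beyond 1.5-fold was 0.121. GCLC reads per GCLM read numbered 0.976 and 0.969 in shp63, against 0.860 and 0.910 in shControl. The catalytic subunit was therefore relatively higher in shp63 by 0.14 on the log2 scale, beside an SD of 0.057 within shControl.

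**Figure D2:**
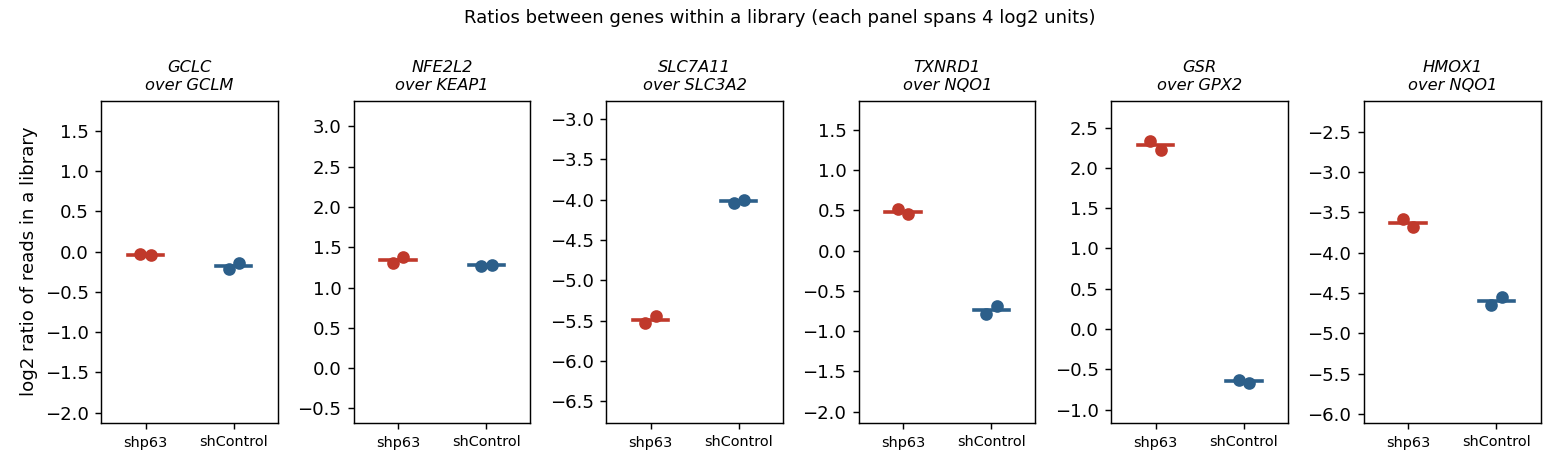
Log2 ratio of the reads of 2 genes within each library (points) with the group mean (line), shp63 left of shControl, in panels that each span 4 log2 units. GSR over GPX2 shows the widest gap, at 2.34 and 2.22 in shp63 and -0.63 and -0.67 in shControl, while GCLC over GCLM and NFE2L2 over KEAP1 differ by 0.14 and 0.07.

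GPX2, which uses glutathione, and GSR, which restores it, moved in opposite directions. GPX2 (ENSG00000176153, chr14:65405876-65409463, minus strand), a selenium-dependent peroxidase known from epithelia, had 6.59 and 7.02 CPM in the shp63 libraries, against 37.7 and 39.0 CPM in the shControl libraries. It was 5.64-fold lower (log2 fold change -2.50, SE 0.060, adjusted p = 1.01e-19, edgeR), the largest change among the 10 genes and below those of all but 0.765% of tested genes. Its count rested on 343 and 352 reads in shp63, the fewest of any of the 10 genes. GSR (ENSG00000104687, on chromosome 8), the reductase that regenerates glutathione, had 33.3 and 32.7 CPM in the shp63 libraries, against 24.4 and 24.6 CPM in the shControl libraries. It was 1.35-fold higher (log2 fold change 0.43, SE 0.045, adjusted p = 1.82e-08, edgeR). There were 5.05 and 4.66 GSR reads per GPX2 read in shp63, against 0.647 and 0.630 in shControl, a 7.60-fold higher ratio.

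No other glutathione peroxidase gene of the lists was called lower. GPX1, the widely expressed cytosolic peroxidase, had 254 ± 8.68 CPM in shp63 and 213 ± 4.38 CPM in shControl (SD, n = 2 each) and was 1.19-fold higher. GPX4, which reduces lipid peroxides in membranes, had 142 ± 0.588 CPM in shp63 and 136 ± 0.167 CPM in shControl (SD, n = 2 each) and did not pass the test (adjusted p = 0.0531, edgeR), though it passed as higher with RLE factors (adjusted p = 0.0358). GPX8, an endoplasmic reticulum member, was 1.36-fold higher in shp63. GPX3 and GPX7 did not pass, GPX7 passing as higher without shControl replicate 1 (adjusted p = 0.00846, edgeR). These peroxidases are given as a family, outside the rule for named genes.

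TXNRD1 and NQO1, a pair of NAD(P)H-dependent reductases that are both known NRF2 targets, changed by about the same factor in opposite directions. TXNRD1 (ENSG00000198431, chr12:104609557-104744085, plus strand), the cytosolic thioredoxin reductase, had 390 and 400 CPM in the shp63 libraries, against 255 and 264 CPM in the shControl libraries. It was 1.52-fold higher (log2 fold change 0.61, SE 0.031, adjusted p = 6.55e-14, edgeR). NQO1 (ENSG00000181019, chr16:69743304-69760463, minus strand), a quinone reductase often read as a marker of NRF2 activity, had 273 and 293 CPM in the shp63 libraries, against 441 and 424 CPM in the shControl libraries. It was 1.53-fold lower (log2 fold change -0.61, SE 0.034, adjusted p = 4.18e-13, edgeR). Neither passed the test for a change beyond 1.5-fold, with adjusted p = 0.322 for TXNRD1 and 0.308 for NQO1 (edgeR glmTreat). TXNRD1 reads per NQO1 read numbered 1.43 and 1.37 in shp63, against 0.578 and 0.622 in shControl, a 2.33-fold higher ratio.

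HMOX1 (ENSG00000100292, chr22:35777089-35790200, plus strand), which breaks down heme and answers to BACH1 as well as NRF2, had 22.9 and 22.8 CPM in the shp63 libraries, against 17.6 and 18.1 CPM in the shControl libraries. It was 1.28-fold higher (log2 fold change 0.35, SE 0.053, adjusted p = 3.82e-06, edgeR). HMOX1 reads per NQO1 read numbered 0.0837 and 0.0777 in shp63, against 0.0400 and 0.0427 in shControl, a 1.95-fold higher ratio.

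Levels were compared between genes per length, as CPM divided by the length of the MANE Select transcript in kilobases (RPKM), which assumes that this transcript is the one expressed. In shp63 the order was NQO1 (112 ± 5.47 RPKM), TXNRD1 (102 ± 1.90), NFE2L2 (72.4 ± 1.96), KEAP1 (27.3 ± 0.105), GCLC (21.7 ± 0.449), GCLM (17.3 ± 0.442), HMOX1 (14.7 ± 0.0452), GSR (10.9 ± 0.136), GPX2 (7.38 ± 0.328) and SLC7A11 (6.71 ± 0.232). In shControl the order was NQO1 (171 ± 4.62 RPKM), NFE2L2 (78.8 ± 0.00488), TXNRD1 (67.2 ± 1.64), GPX2 (41.6 ± 1.02), KEAP1 (31.1 ± 0.214), GCLC (30.6 ± 0.742), GCLM (26.8 ± 0.415), SLC7A11 (19.7 ± 0.340), HMOX1 (11.5 ± 0.218) and GSR (8.07 ± 0.0444). Errors are SDs over the 2 libraries of a group. The libraries of KEAP1 and GCLC overlapped in shControl, and no other neighbours in either order did. GPX2 held rank 9 in shp63 and rank 4 in shControl, and SLC7A11 held rank 10 in shp63 and rank 8 in shControl. The SLC7A11 transcript is 9.645 kb long, much of it untranslated, so its level per length would be higher if shorter forms prevail.

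**Figure D3:**
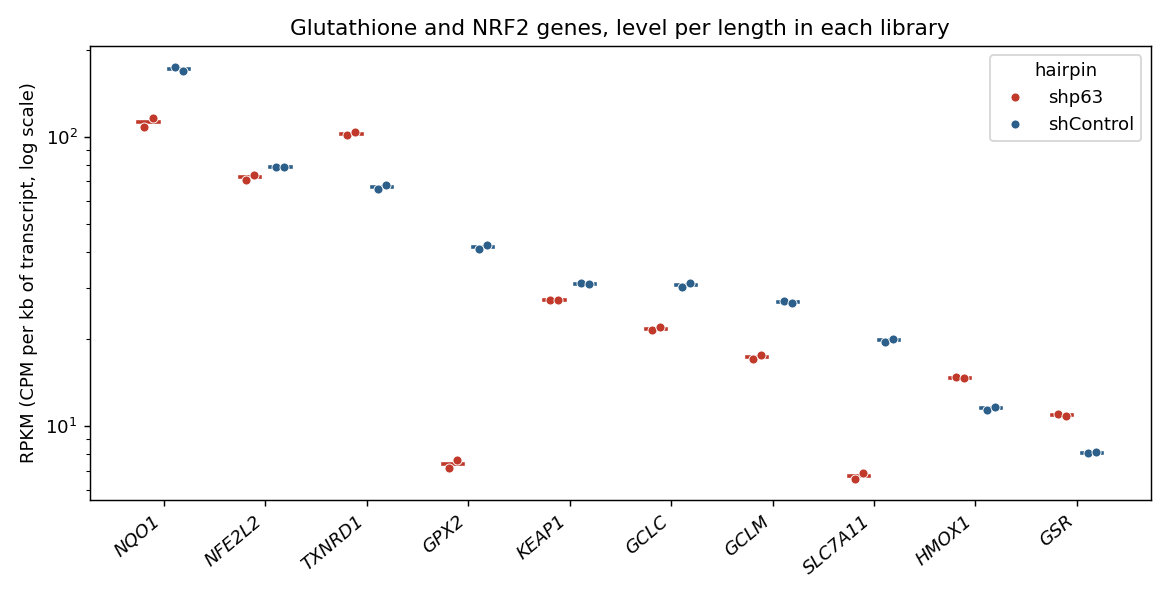
Level per length of each gene in every library, in RPKM on a log axis, ordered by the shControl mean (points are libraries, lines are group means, shp63 left of shControl). GPX2, at 7.15 and 7.61 in shp63 and 40.9 and 42.3 in shControl, and SLC7A11, at 6.55 and 6.88 in shp63 and 19.5 and 20.0 in shControl, show the widest gaps.

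Around these 10 genes, 9 lists of the wider pathway, also drawn up with earlier results in view, were described by counts, with no test of a list. Of 162 tested genes in them 55 were higher and 82 lower in shp63, so that 84.6% passed, against 74.0% of all tested genes (36.9% higher and 37.1% lower). The share that passed ran from 70.0% for NRF2 partners and regulators to 100% for the antioxidant list outside glutathione. Detoxification genes known as NRF2 targets had the largest share of lower calls among the 9 lists, with 19 of 25 lower and 4 higher (median log2 fold change -0.89). In either direction 92.0% of them passed, against 74.0% of all tested genes. ALDH3A1, an aldehyde dehydrogenase, had 21.9 ± 1.04 CPM in shp63 and 117 ± 2.57 CPM in shControl (SD, n = 2 each), 5.37-fold lower. AKR1C2, an aldo-keto reductase with near-identical paralogs that can share its reads, was 2.46-fold lower. The exporter gene ABCC3 was 2.27-fold higher and the glutathione transferase gene GSTA4 2.30-fold higher, GSTA4 at only 3.75 ± 0.0546 CPM in shp63 and 1.63 ± 0.301 CPM in shControl (SD, n = 2 each).

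Other genes of glutathione synthesis and breakdown moved both ways, with 7 of 12 lower and 3 higher (median log2 fold change -0.23), SLC3A2 being counted among the lower ones. The share that passed was 83.3%, against 74.0% of all tested genes. CBS, which feeds homocysteine toward cysteine, had 4.07 ± 0.143 CPM in shp63 and 15.9 ± 0.594 CPM in shControl (SD, n = 2 each), 3.91-fold lower. GGCT, of the glutathione breakdown cycle, was 1.49-fold lower, while the gamma-glutamyltransferase family gene GGT6 and the oxoprolinase gene OPLAH were 1.53-fold and 1.23-fold higher. GSS, the second enzyme of glutathione synthesis, had 99.5 ± 0.476 CPM in shp63 and 96.4 ± 0.298 CPM in shControl (SD, n = 2 each) and did not pass (adjusted p = 0.256, edgeR). GSS was chosen after its values were seen.

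Among 17 genes of glutathione use 7 were higher and 5 lower (median 0.07), so that 70.6% passed, near the 74.0% of all tested genes. GLRX, the cytosolic glutaredoxin that reduces glutathionylated proteins, had 48.7 ± 0.190 CPM in shp63 and 12.5 ± 0.193 CPM in shControl (SD, n = 2 each), 3.91-fold higher. MGST2, a microsomal transferase gene, was 1.77-fold higher. GSTP1, a cytosolic glutathione transferase, had 311 ± 6.89 CPM in shp63 and 740 ± 25.9 CPM in shControl (SD, n = 2 each), 2.38-fold lower, and GLRX3 was 1.44-fold lower.

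The thioredoxin and peroxiredoxin list held 8 higher and 9 lower genes of 19 (median -0.05), or 5 higher and 10 lower when libraries were scaled by their totals alone. With TMM factors 89.5% passed, against 74.0% of all tested genes. TXN, the thioredoxin that TXNRD1 reduces, had 271 ± 11.0 CPM in shp63 and 427 ± 8.63 CPM in shControl (SD, n = 2 each), 1.58-fold lower, opposite in direction to its reductase. TXNIP, which binds and inhibits thioredoxin, had 294 ± 0.426 CPM in shp63 and 135 ± 0.624 CPM in shControl (SD, n = 2 each), 2.18-fold higher. MSRB3, a methionine sulfoxide reductase gene, was 2.49-fold higher and the sestrin gene SESN1, a known p53 target, 1.85-fold lower.

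Of 17 genes of NADPH supply 9 were lower and 6 higher (median -0.32), or 11 lower and 2 higher with libraries scaled by their totals alone. With TMM factors 88.2% passed, against 74.0% of all tested genes. TKT, the transketolase of the pentose phosphate pathway, had 541 ± 1.02 CPM in shp63 and 1246 ± 26.0 CPM in shControl (SD, n = 2 each), 2.30-fold lower. The mitochondrial genes IDH2 and NNT were 1.18-fold and 1.14-fold higher.

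Among NRF2 partners and regulators 8 of 20 were higher and 6 lower (median -0.00317), so that 70.0% passed, against 74.0% of all tested genes. In the test for a change beyond 1.5-fold 3 were higher and 0 lower, where 1894 of all 14901 tested genes were higher and 1491 lower. Over the 162 tested genes of all 9 lists, 15 were higher and 36 lower in that test. The detoxification list had 2 higher and 13 lower, the NADPH list 0 and 6, and the ATF4 list 1 and 10. NFE2L1, a relative of NFE2L2, had 440 ± 5.49 CPM in shp63 and 283 ± 2.14 CPM in shControl (SD, n = 2 each), 1.55-fold higher, and SYVN1, an endoplasmic reticulum ubiquitin ligase gene, was 1.71-fold higher. RXRA, a nuclear receptor gene, and PGAM5, a mitochondrial phosphatase gene, were 1.46-fold and 1.29-fold lower. Small MAF genes, chosen after their values were seen, diverged. MAFK had 661 and 599 CPM in the shp63 libraries, against 200 and 234 CPM in the shControl libraries, 2.91-fold higher, and MAFF was 2.89-fold higher, whereas MAFG was 1.30-fold lower. MAFK did not pass without shp63 replicate 1 (adjusted p = 0.077, edgeR) or without shp63 replicate 2 (adjusted p = 0.0552, edgeR).

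Heme and iron genes split into 7 higher and 8 lower of 20 (median 0.02). The ferritin genes FTL and FTH1 fell, FTL to 276 ± 0.438 CPM in shp63 against 591 ± 20.0 CPM in shControl (SD, n = 2 each), 2.14-fold lower, and FTH1 by 1.55-fold. Both have many processed pseudogenes that can share reads. SLC40A1, the iron exporter ferroportin, was 2.41-fold higher and the iron importer gene SLC11A2 1.29-fold higher.

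The list of antioxidant enzymes outside glutathione, which also took in the kinase gene OXSR1, held 6 higher and 7 lower genes of 13 (median -0.08). The share that passed was 100%, against 74.0% of all tested genes. In the test for a change beyond 1.5-fold 4 were higher and 0 lower, where 1894 of all 14901 tested genes were higher and 1491 lower. The log2 fold changes ran from -0.31 to 2.24. The paraoxonase genes PON2 and PON3 were 3.44-fold and 4.72-fold higher, PON3 with 65.4 ± 0.581 CPM in shp63 and 13.9 ± 0.0982 CPM in shControl (SD, n = 2 each). OXSR1, a stress-responsive kinase gene, and MPST, a sulfurtransferase gene, were 1.16-fold and 1.22-fold lower.

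Genes of the ATF4 and amino acid response were listed because ATF4 is also known to raise SLC7A11. Of 19 tested 12 were lower and 6 higher (median -0.72), or 13 lower and 3 higher with libraries scaled by their totals alone. With TMM factors 94.7% passed, against 74.0% of all tested genes. PSAT1, of serine synthesis, had 80.0 ± 3.97 CPM in shp63 and 236 ± 0.786 CPM in shControl (SD, n = 2 each), 2.96-fold lower, and the glutamine carrier gene SLC1A5 was 2.66-fold lower. VLDLR, a lipoprotein receptor gene, was 2.73-fold higher and the transcription factor gene CEBPB 1.40-fold higher. ATF4 mRNA itself, chosen after its values were seen, had 387 ± 3.36 CPM in shp63 and 455 ± 4.26 CPM in shControl (SD, n = 2 each), 1.18-fold lower. For every gene of the 9 lists described here as higher or lower the adjusted p was under 0.05 (edgeR, Benjamini-Hochberg).

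**Figure D4:**
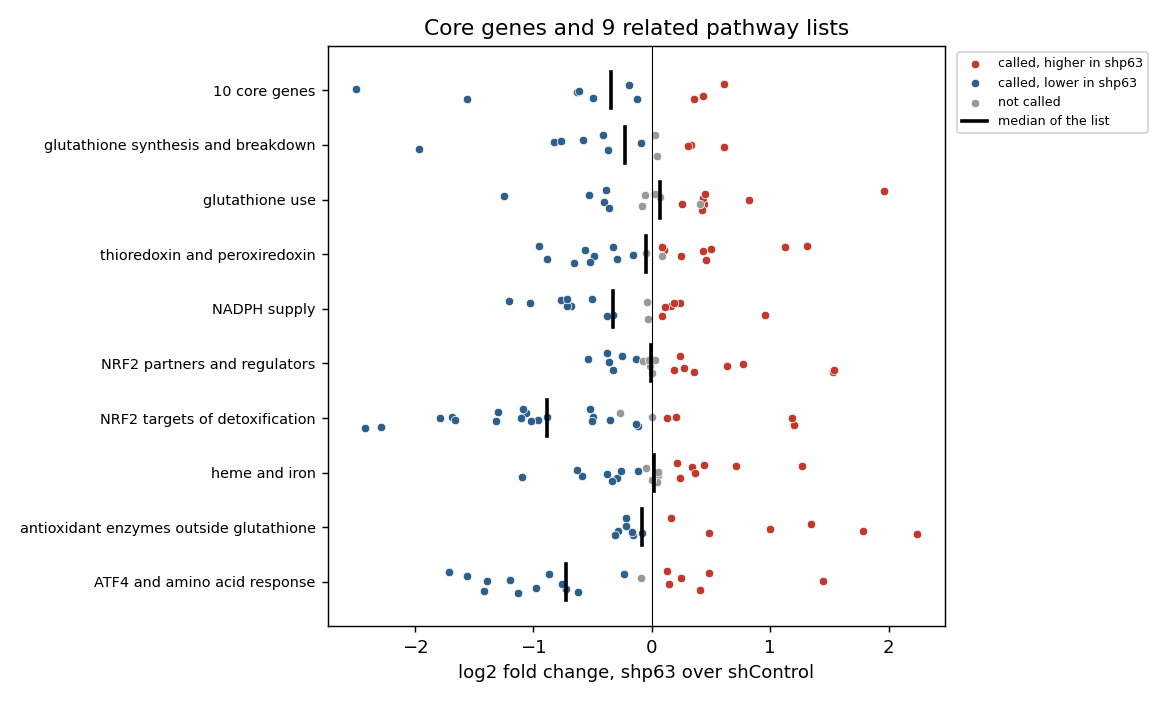
Log2 fold change of shp63 over shControl for each tested gene of the 10 core genes and of the 9 lists (points, vertically spread for legibility), coloured by the edgeR call at an adjusted p under 0.05, with each list's median as a bar. The medians of the detoxification and ATF4 lists, at -0.89 and -0.72, lie furthest below 0.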

How the data were processed

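The authors deposited raw read counts for each gene symbol, in whole numbers and without normalization, with 1 column per library, each matched to its sample by name. Per the series' design text and the submitters' processing notes, stranded libraries were aligned to GRCh37 with TopHat2 2.0.13 and counted with HTSeq 0.6.1. The gene annotation and strand setting are not given in the sources used here. The test was that of edgeR 4.0.16 (R 4.3.3): TMM factors, filterByExpr (10468 genes left out, 14901 tested), a robust quasi-likelihood fit with group as the only term, and Benjamini-Hochberg adjustment over all tested genes. glmTreat tested for changes beyond 1.5-fold. Standard errors came from the fold change and its F statistic. The common biological coefficient of variation was 0.0308, and p-values measure only the spread between cultures. Replicate pairs differed by more than sampling noise (chi-square per degree of freedom 3.13 in shp63 and 2.92 in shControl). The fit was also run on simulated counts in which only a small share of genes changed, unlike these data, and no result here rests on that run. Coordinates and transcript lengths came from GENCODE 44 lifted to GRCh37, and sequences from GRCh37. The members and lists were chosen with earlier results of these data known. The text names all 10 members, TP63, SLC3A2 and up to 2 called genes per direction in each list, of smallest adjusted p and at least 1 CPM on average; 1 gene under this rule is not reported here. Alternatives were RLE factors, library totals, no filter, a 1 CPM filter, DESeq2 1.42.0, limma-voom 3.58.1, a replicate block and each library left out.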

Additional observations from a re-analysis of the deposited data

How the results depend on the processing

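Each of the 10 core genes kept its direction and an adjusted p under 0.05 in all 12 alternatives run. NFE2L2 came nearest the threshold, with an adjusted p of up to 0.0193 and a log2 fold change between -0.21 and -0.09. Library totals without a composition factor shifted log2 fold changes by -0.09 for the median gene, and all called genes then split into 4658 higher and 6591 lower, where TMM gave 5499 and 5534. With those totals, 4 core genes were lower beyond 1.5-fold (GCLM and NQO1 joined SLC7A11 and GPX2), and the higher calls numbered 5 in the thioredoxin, 2 in the NADPH and 3 in the ATF4 list. DESeq2 also gave 3 higher calls in the ATF4 list. Leaving out 1 library at a time, with the lone library assumed to vary like the other group, gave 2 to 4 core genes lower beyond 1.5-fold, the 4 (GCLM and NQO1 included) without shp63 replicate 2. It gave 5 to 8 higher calls in the thioredoxin list, with 5 without shControl replicate 2, and 3 to 5 in the NADPH list, with 3 without shp63 replicate 2 or shControl replicate 2. MAFK lost its call without either shp63 library. SLC3A2 lost its call with RLE factors, with the replicate block, and without shControl replicate 1 (adjusted p = 0.104, edgeR) or 2 (adjusted p = 0.0888, edgeR). Neither GPX4 nor GSS passed with library totals, and their log2 fold changes there were -0.021 and -0.043, opposite in sign to those with TMM. GPX4 passed as higher with RLE factors, the 1 CPM filter and the crossed block. The replicate block called 10858 genes and, among the core and list genes named with a call and refitted, ended that of SLC3A2 alone. Same-numbered libraries share only a number, and their deviations correlated at r = -0.112 across genes. A crossed pairing, added after seeing the data, called 11387 genes. DESeq2 called 9372 genes.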
